A study of Mus musculus with 6 samples.

Results

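Cyclophilin D, encoded by Ppif, and its relatives cyclophilin C (Ppic) and Fkbp14 were followed in mouse embryonic fibroblasts labelled wild type or CypD knockout, CypD being cyclophilin D. The members were all probes whose only gene symbol in the array annotation was Ppif, Ppic or Fkbp14. There were 4 such probes for 3 genes, 1 for Ppif, 2 for Ppic and 1 for Fkbp14, among 10653 probes with 1 gene symbol and 45281 probes on the array. The series compares 3 arrays from wild-type cultures with 3 from CypD knockout cultures, and its title names the cell cycle and chemokine-directed motility as processes that extramitochondrial cyclophilin D controls. Both groups are of C57BL/6 background and were grown from E13.5 embryos. The sources used here do not give the knockout allele, the number of embryos behind each culture or the passage, and embryonic fibroblasts are a mixture of connective-tissue cells rather than 1 cell type. The labels do not say whether the replicate letters A, B and C mark separate embryos or cultures, so each p-value rests on the spread among arrays of a genotype, and that spread may be technical.

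Peptidyl-prolyl isomerases turn the peptide bond before a proline between its cis and trans forms, a slow step in the folding of many proteins. They form 3 families: the cyclophilins, which bind cyclosporin A, the FK506-binding proteins and the parvulins. Cyclophilin D is the cyclophilin of the mitochondrial matrix and sensitises the permeability transition pore, a channel whose opening collapses the membrane potential and can kill the cell. Cyclophilin C works in the secretory pathway, and Fkbp14 sits in the endoplasmic reticulum (ER), where it helps fold collagens, proteins rich in proline that fibroblasts secrete in quantity.

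In the knockout cultures the signal of Ppif, the gene targeted there, fell but was not lost. Its deposited intensities, on a linear scale, were 13524, 13569 and 12710 in wild type A, B and C. The knockout arrays, in the same order of letters, read 4824, 5033 and 4626. The groups did not overlap, and the knockout mean of 4828 ± 204 was 36.4% of the wild-type mean of 13268 ± 484 (SD, n = 3 each). After background correction and quantile normalization, which sets all arrays to 1 common distribution, the log2 intensities were 13.57, 13.70 and 13.62 against 12.25, 12.35 and 12.18. The log2 fold change, knockout over wild type here and below, was -1.37 ± 0.066 (SE, adjusted p = 2.96e-09 by limma), with a 95% interval from -1.51 to -1.23, so that 38.7% of the normalized wild-type signal stayed. This signal still lay at the 93.6th percentile of all probes on the knockout arrays. The sources used here do not say where the Ppif probe lies relative to the deletion, and a probe outside the deleted sequence checks nothing about it.

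Ppic fell in the knockout cultures by both of its probes. The dimmer probe had log2 intensities of 13.08, 13.06 and 13.09 in wild type and of 12.25, 12.31 and 12.32 in knockout, in order of the letters A, B and C here and below. The wild-type arrays had an SD of 0.0142, and the lowest of them stood 0.74 above the highest knockout array. This probe's log2 fold change was -0.78 ± 0.059 (SE, adjusted p = 3.00e-07 by limma), a 1.72-fold lower signal with a 95% interval from -0.91 to -0.66. The brighter probe read 15.49, 15.38 and 15.42 in wild type and 14.76, 14.82 and 14.77 in knockout, again without overlap. Its log2 fold change was -0.64 ± 0.049 (SE, adjusted p = 3.12e-07 by limma), or 1.56-fold lower.

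The fall measured for Ppic differed slightly between its probes. It was larger by 0.139 on the log2 scale at the dimmer probe, and the array-wise differences between the probes did not overlap between the genotypes (exact permutation test, two-sided, p = 0.1, the smallest that 3 arrays against 3 allow). The deposited intensity of the brighter probe, 43678 to 48938 on the wild-type arrays, was not far below the highest of any probe on those arrays, 70007 to 70884. The part of this brightness in the smaller fold change was not tested.

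Fkbp14 moved the other way and rose in the knockout cultures. Its log2 intensities were 9.65, 9.58 and 9.67 in wild type, and 10.38, 10.21 and 10.24 in knockout. Every knockout array lay above every wild-type array, with a gap of 0.54. The log2 fold change was 0.64 ± 0.083 (SE, adjusted p = 6.46e-05 by limma), a 1.56-fold higher signal with a 95% interval from 0.46 to 0.82. On the deposited linear scale the means were 912 ± 50.4 and 1312 ± 98.5 (SD, n = 3 each).

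**Figure D1:**
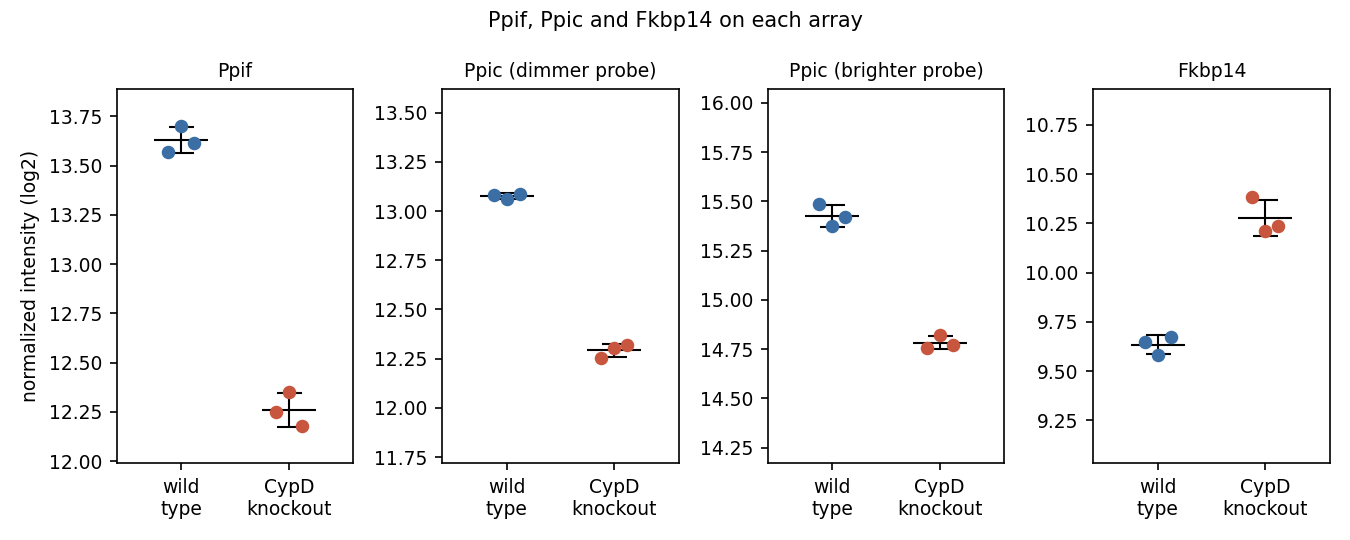
Normalized intensity (log2, vertical axis; each panel spans the same range of log2 units) of the Ppif, Ppic and Fkbp14 probes on each array, with blue points for wild type and red points for CypD knockout; horizontal lines are group means and bars are SDs over 3 arrays. The genotypes are apart in all 4 panels, with Ppif and both Ppic probes lower and Fkbp14 higher in knockout.

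All 4 probes passed the test at an adjusted p under 0.05, and in all 4 the genotypes did not overlap. Both were common in these data: 42.1% of tested probes with a gene name passed, against 20.0% of all tested probes, and 54.7% of the former had no overlap between the genotypes. Gene names were given only for probes in the authors' processed table, each of which varied at least 1.20-fold over the arrays, so these shares describe probes already selected for variation. By size, 1.45% of the named genes tested, 110 of 7605, had a log2 fold change as far below 0 as that of Ppif, whereas 4.34% and 6.01% were as low as the dimmer and the brighter Ppic probe, and 6.25% were as high as Fkbp14. Ppif alone among the 3 genes both passed the test and changed by at least 2-fold, as did 6.07% of named genes in either direction. In bulk RNA, fewer cells that express a gene and less RNA per cell cannot be told apart.

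The start regions of Ppif and Fkbp14 are shown as a description only. These genes moved in opposite directions, but Ppif is the gene targeted in the knockout. The part of the start regions in either change was not tested. The sequences are the 250 bases before each annotated RNA start, from RefSeq with build GRCm38.p6. They lie at chr14:25693920-25694169 on the plus strand for Ppif and, on the minus strand, at chr6:54597345-54597594 and chr6:54593175-54593424 for the separate starts 1 and 2 of Fkbp14. Capitals mark CCAAT and GGGCGG, the core letters of the CCAAT box and the GC box, on either strand.
Ppif: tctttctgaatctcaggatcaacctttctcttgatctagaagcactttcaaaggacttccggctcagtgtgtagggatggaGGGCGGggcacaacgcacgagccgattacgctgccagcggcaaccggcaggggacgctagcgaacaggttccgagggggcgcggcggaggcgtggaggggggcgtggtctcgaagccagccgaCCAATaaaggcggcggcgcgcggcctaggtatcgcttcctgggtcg
Fkbp14 start 1: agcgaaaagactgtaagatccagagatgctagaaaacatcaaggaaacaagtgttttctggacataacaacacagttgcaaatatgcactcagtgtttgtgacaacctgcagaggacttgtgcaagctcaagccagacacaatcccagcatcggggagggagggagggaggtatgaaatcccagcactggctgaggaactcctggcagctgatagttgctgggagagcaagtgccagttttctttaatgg
Fkbp14 start 2: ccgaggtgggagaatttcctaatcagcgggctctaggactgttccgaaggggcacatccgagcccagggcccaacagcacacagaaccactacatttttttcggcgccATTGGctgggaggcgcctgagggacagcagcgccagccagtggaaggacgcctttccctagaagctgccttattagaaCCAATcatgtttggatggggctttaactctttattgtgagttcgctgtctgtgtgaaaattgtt

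The Ppif region held 1 CCAAT and 1 GGGCGG and had 62.8% G and C. Start 1 of Fkbp14 held neither and had 48.0% G and C, while start 2 held CCAAT at 2 places and had 53.2%. Among 32851 such regions of all genes, 33.8% held CCAAT and 32.7% held GGGCGG on either strand, and the median was 52.4% G and C. Of 14 measured isomerase genes with such a region, 9 held CCAAT and 10 held GGGCGG at 1 or more starts. These counts are per gene, and some genes have several starts, so they cannot be set against the shares per region. Ppic had no such region in the set used. The arrays measured RNA only, and which Fkbp14 start these cells used is not known.

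The wider isomerase family did not move as a block. Of 36 genes in the 3 families, 15 had a named probe, all tested; counted by the brightest probe of each gene, 4 rose, 5 fell and 6 missed the threshold. Without Ppif, Ppic and Fkbp14, 3 rose, 3 fell and 6 missed the threshold, so 50% of these 12 changed beside 43.6% of all named genes, of which 21.8% rose and 21.8% fell. The median log2 fold change was 0.02 over these 12 genes, and 0.01 over all 7605 named genes. The remaining 21 genes of the families have no value here.

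Among the other cyclophilins, Ppib rose while the spliceosomal ones were divided. Ppib encodes cyclophilin B, the ER cyclophilin that takes part in folding and hydroxylation of procollagen. Its log2 intensities were 12.92, 12.91 and 12.79 in wild type and 13.16, 13.26 and 13.48 in knockout, without overlap. The log2 fold change was 0.43 ± 0.080 (SE, adjusted p = 0.00147 by limma), opposite in sign to that of Ppic, the other cyclophilin of the secretory pathway measured here. Ppil1, a component of the spliceosome, had 11.53, 11.62 and 11.27 in wild type and 11.22, 11.22 and 11.18 in knockout. Its fall of -0.27 ± 0.088 (adjusted p = 0.0478 by limma) was near the threshold, and the call was lost without a filter on intensity (adjusted p = 0.0589), when the trend with intensity was dropped (adjusted p = 0.105) and when any of the 5 arrays other than wild type C was left out (adjusted p = 0.0982 to 0.19). Without wild type C, the lowest of the wild-type arrays, its log2 fold change was -0.37 (adjusted p = 0.00156).

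Ppil3, another spliceosomal cyclophilin, gave opposite results by its probes. The brighter probe rose, from 12.59, 12.52 and 12.57 to 12.86, 13.00 and 12.79, a log2 fold change of 0.32 ± 0.068 (SE, adjusted p = 0.00356 by limma). The dimmer probe fell, from 7.53, 7.74 and 7.67 to 6.89, 7.09 and 7.19, a log2 fold change of -0.59 ± 0.115 (SE, adjusted p = 0.00193 by limma). Neither pair of groups overlapped. The dimmer probe lay at the 46.9th percentile of all probes on the knockout arrays, where background is not separated from expression. Its log2 fold change was -0.37 without background correction (adjusted p = 0.00179), and counting Ppil3 by it turns the family's split to 3 higher and 6 lower.

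Ppig, a nuclear cyclophilin with an arginine-serine tail, and Nktr, a large cyclophilin first described in natural killer cells, missed the threshold. Ppig had a log2 fold change of 0.10 ± 0.097, with a 95% interval from -0.11 to 0.31. The probes of Nktr gave 0.39 ± 0.23 and -0.15 ± 0.12 (adjusted p = 0.298 and 0.496 by limma). At the first of these, wild type C read 8.80 against 7.94 and 7.57 in the other wild-type arrays, and its log2 fold change was 0.74 without wild type C (adjusted p = 0.000893) and 0.125 without wild type B (adjusted p = 0.773).

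The FK506-binding proteins of the ER also went in different directions. Fkbp9, an ER isomerase of the same group as Fkbp14, rose from 13.71, 13.55 and 13.63 to 13.96, 14.05 and 13.93, a log2 fold change of 0.35 ± 0.061 (SE, adjusted p = 0.000745 by limma). Fkbp11, a membrane-anchored isomerase of secretory cells, fell from 12.64, 12.71 and 12.96 to 12.38, 12.41 and 12.41, a log2 fold change of -0.37 ± 0.079 (SE, adjusted p = 0.00397 by limma). Fkbp2, a small ER isomerase, had a log2 fold change of -0.16 ± 0.080 and missed the threshold (adjusted p = 0.206 by limma, 95% interval from -0.33 to 0.01).

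Of the other FK506-binding proteins only Fkbp5 passed among those measured. Fkbp5 is a cochaperone of Hsp90 that restrains the glucocorticoid receptor and is induced by it. It fell from 10.79, 10.85 and 10.67 to 10.24, 10.20 and 10.25, and its wild-type and knockout arrays did not overlap. The log2 fold change was -0.54 ± 0.079 (SE, adjusted p = 0.000192 by limma), or 1.45-fold lower, in this fit the largest fall among the named probes of the 3 families after those of Ppif, Ppic and the dimmer Ppil3 probe. Fkbp1a, which encodes FKBP12, the main target of FK506 and rapamycin, had a log2 fold change of -0.06 ± 0.083, with a 95% interval from -0.24 to 0.12. Fkbp1b, its close relative at calcium release channels, gave 0.11 ± 0.125 (interval from -0.16 to 0.38). Pin4, the only parvulin with a named probe, gave -0.23 ± 0.090 and missed the threshold (adjusted p = 0.0978 by limma; -0.13 without knockout A, adjusted p = 0.377).

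**Figure D2:**
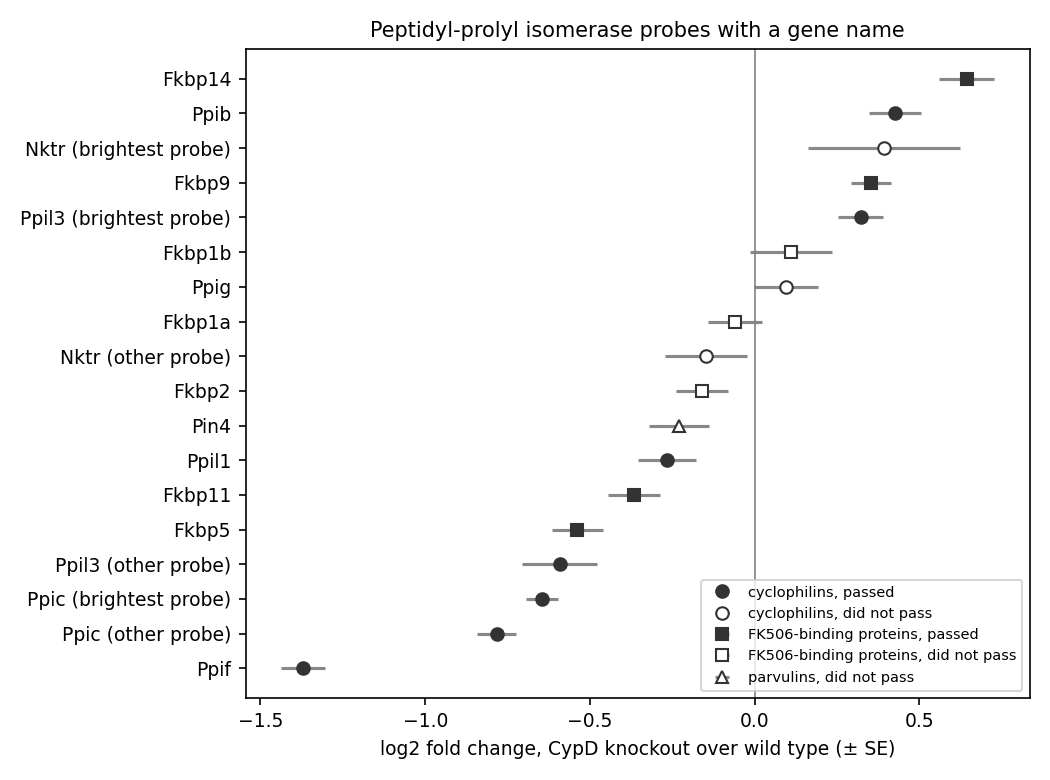
Log2 fold change of knockout over wild type (horizontal axis, bars are SEs from limma, 3 arrays a group) for every probe of a cyclophilin (circles), FK506-binding protein (squares) or parvulin (triangle) with a gene name; filled symbols passed the test. Values run from -1.37 for Ppif to 0.64 for Fkbp14, and Ppil3 appears on both sides of 0.

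Genes of procollagen folding and modification, the process that Ppib and Fkbp14 serve, changed in both directions. Of 26 genes on this list, 17 had a tested, named probe: 4 rose, 6 fell and 7 missed the threshold, so 58.8% changed beside 43.6% of all named genes, with a median log2 fold change of 0.12. P3h3, a prolyl 3-hydroxylase family protein needed for lysine hydroxylation of collagen, was higher 2.07-fold in knockout (8.50 ± 0.15 against 9.55 ± 0.025, SD, n = 3 each; adjusted p = 2.22e-06 by limma). Plod3, a lysyl hydroxylase and glycosyltransferase, rose 1.30-fold (adjusted p = 0.000119 by limma). Pcolce2, which enhances removal of the procollagen C-propeptide, fell at both probes, with log2 fold changes of -0.93 ± 0.070 and -1.63 ± 0.165. P4ha2, a catalytic subunit of prolyl 4-hydroxylase, fell at both of its probes too (-0.42 ± 0.064 and -0.47 ± 0.074). Loxl1 and Bmp1, a collagen cross-linker and the C-propeptide protease, had log2 fold changes of 0.15 ± 0.063 and -0.17 ± 0.090 and missed the threshold. Their second probes, at 0.33 and -0.23, missed it too (adjusted p = 0.0721 and 0.108 by limma).

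The collagens among the fibroblast markers moved in both directions too. Col1a1 fell from 13.99 ± 0.058 to 13.36 ± 0.036 (SD, n = 3 each; adjusted p = 1.76e-06 by limma) and Col1a2 by 0.36 ± 0.090 (adjusted p = 0.0112 by limma), the genes of type I collagen. The Col1a2 call was lost without wild type A or knockout B (adjusted p = 0.0511 and 0.0674). Col3a1, the gene of type III collagen, a known substrate of Fkbp14, rose by 1.13 ± 0.084 (adjusted p = 2.69e-07 by limma). These collagens were picked after their values were seen, and a link between Col3a1 and Fkbp14 was not tested.

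Of 10 tested ER folding chaperones outside the isomerases, 1 rose, 3 fell and 6 missed the threshold, so 40% changed, near the share of all named genes; the median log2 fold change was -0.14. Sil1, a nucleotide exchange factor for BiP, and Ero1b, an ER oxidase, fell, with log2 fold changes of -0.54 ± 0.094 and -0.59 ± 0.112 (adjusted p = 0.000899 and 0.00156 by limma). Creld2, a stress-induced ER protein, fell by 0.27 ± 0.066 (adjusted p = 0.0105 by limma), a call lost without wild type A or knockout B (adjusted p = 0.0514 and 0.0519). The disulphide isomerase gene Pdia4 rose by 0.39 ± 0.101 (adjusted p = 0.0131 by limma), a call lost without knockout B and in a fit with no intensity trend (adjusted p = 0.0552 and 0.0549). Wild type C read 12.26 for Pdia4 against 12.71 and 12.73 in the other wild-type arrays, and without it the log2 fold change was 0.24 (adjusted p = 0.0128).

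Some of the ER genes were not uniform within wild type. Pdia3 and Calr, a disulphide isomerase and the lectin chaperone calreticulin, had log2 fold changes of -0.22 ± 0.139 and -0.18 ± 0.126 and missed the threshold. Wild type C was the lowest wild-type array for both, at 13.92 against 14.46 and 14.71 for Pdia3 and at 10.25 against 10.73 and 10.79 for Calr. Without it both passed, at -0.44 and -0.35 (adjusted p = 0.000321 and 0.00945), while without wild type B they were at -0.0485 and -0.0806 (adjusted p = 0.855 and 0.768). Fkbp14 read 9.67 on the same array and 9.65 and 9.58 on the other wild-type arrays, and its log2 fold change without wild type C was 0.66.

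Around cyclophilin D itself, most genes of the permeability transition and of its reported partners missed the threshold. Of 17 tested genes, 3 rose, 2 fell and 12 missed the threshold, so 29.4% changed beside 43.6% of all named genes. Tspo, a cholesterol-binding protein of the outer membrane once proposed as part of the pore, fell by 1.37 ± 0.090 (adjusted p = 6.96e-08 by limma). Its log2 intensities were 12.90, 13.14 and 13.25 in wild type and 11.71, 11.85 and 11.61 in knockout, and its other probes gave -1.37 and -1.26. Stat3, a transcription factor also reported in mitochondria, rose at both probes (0.60 ± 0.099 and 0.51 ± 0.104) (adjusted p = 0.000577 and 0.00255 by limma). Bcl2, the antiapoptotic outer-membrane protein, rose by 0.43 ± 0.091 at its brightest probe (adjusted p = 0.00388 by limma). Its other 4 probes gave 0.265 to 0.51, of which 2 passed. Of these 2, the one also at 0.43 lost its call without wild type B, wild type C, knockout B or knockout C (adjusted p = 0.0569, 0.0894, 0.0813 and 0.163). That probe also lost it with the replicate letter as a block (adjusted p = 0.054). Atp5a1, the alpha subunit of ATP synthase, fell by 0.28 ± 0.059 (adjusted p = 0.00357 by limma), with a second probe at -0.28 that missed the threshold. Atp5c1 and Vdac3, a further ATP synthase subunit and an outer-membrane channel, had log2 fold changes of 0.11 ± 0.073 and 0.12 ± 0.067 and missed the threshold.

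Among the chaperones and proteases that share the matrix with cyclophilin D, 1 of 7 tested genes rose, 3 fell and 3 missed the threshold. This is 57.1% called, beside 43.6% of all named genes, with a median log2 fold change of -0.11, and the calls of Grpel1 and Spg7 among them were lost under some alternatives. Afg3l2, a subunit of the inner-membrane m-AAA protease, fell from 11.09 ± 0.095 to 10.18 ± 0.12 (SD, n = 3 each, adjusted p = 3.65e-06 by limma). The other probes of Afg3l2 fell as well, with -0.48 and -0.54. Hspa9, the matrix Hsp70, fell at both probes (-0.40 ± 0.048 and -0.56 ± 0.061) (adjusted p = 3.70e-05 and 1.27e-05 by limma).

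Calls on other matrix genes depended on the arrays used. Grpel1, the exchange factor of Hspa9, fell by 0.29 ± 0.072 at its brighter probe (adjusted p = 0.0106 by limma). That call was lost without wild type B, knockout B or the intensity trend (adjusted p = 0.0535, 0.0625 and 0.0531). The second Grpel1 probe gave -0.246 and missed the threshold (adjusted p = 0.067 by limma). Spg7, the partner subunit of Afg3l2, which also belongs to the permeability transition list, rose by 0.31 ± 0.088 at its brighter probe (adjusted p = 0.0241 by limma). This call was lost without wild type A, wild type B, knockout B or knockout C (adjusted p = 0.0845, 0.106, 0.0884 and 0.102). It was also lost with median scaling (adjusted p = 0.0618) and in a fit with no intensity trend (adjusted p = 0.0625). The second Spg7 probe gave 0.215 and missed the threshold (adjusted p = 0.143 by limma). Hspd1, the matrix chaperonin Hsp60, had log2 intensities of 12.89, 13.26 and 11.58 in wild type and 12.91, 12.43 and 12.49 in knockout. Its log2 fold change was 0.04 ± 0.297 with all arrays and -0.46 without wild type C, where it passed (adjusted p = 0.0117). Clpx, the unfoldase of the matrix protease ClpXP, gave -0.09 ± 0.081 and missed the threshold.

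**Figure D3:**
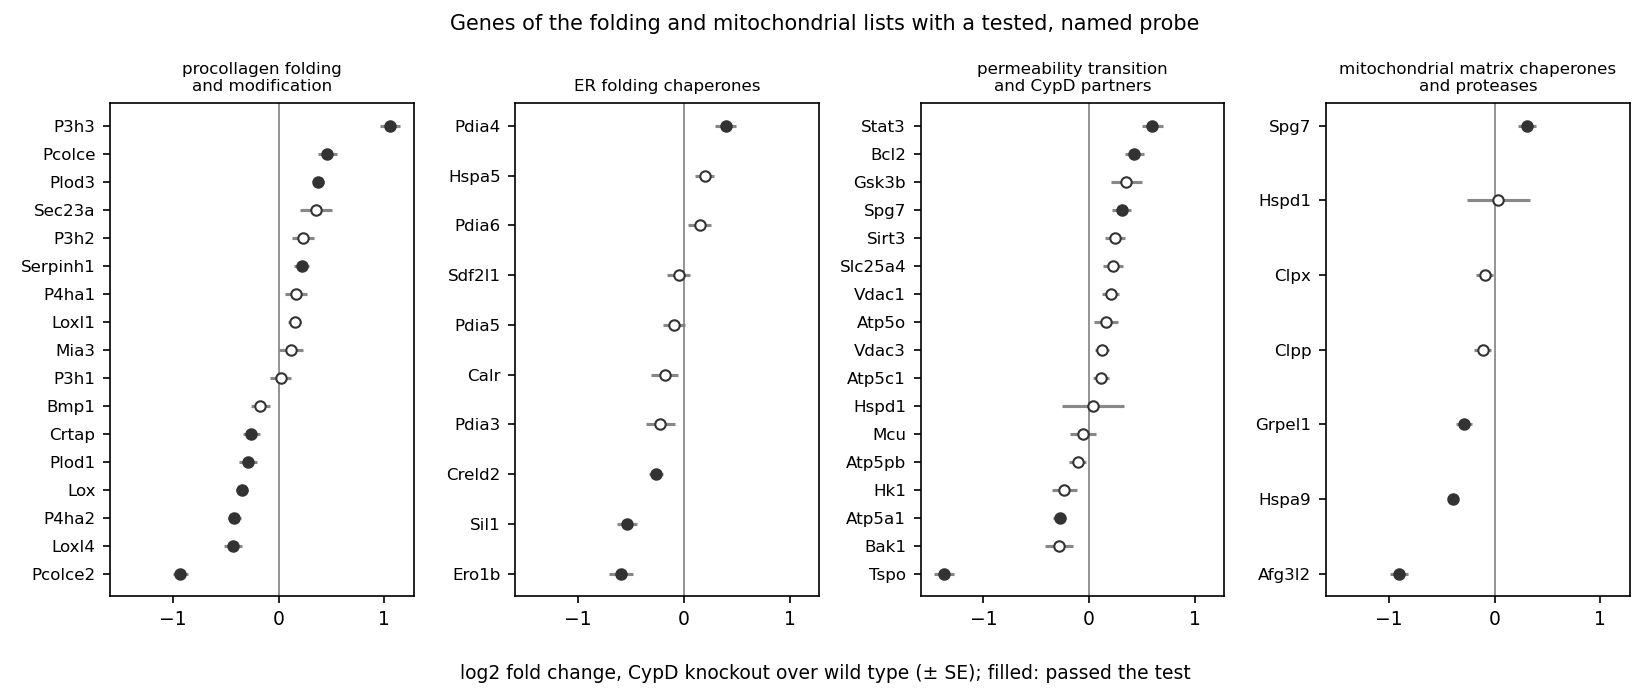
Log2 fold change of knockout over wild type (horizontal axis, bars are SEs from limma, 3 arrays a group) for every gene with a tested, named probe on the lists of procollagen folding and modification, ER folding chaperones, permeability transition and CypD partners, and mitochondrial matrix chaperones and proteases; filled circles passed the test. Each list holds filled circles on both sides of 0, from -1.37 for Tspo to 1.05 for P3h3.

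Likeness of pattern was measured as the root mean square difference between 2 probes over the 6 arrays, after centring each probe on its own mean. The named genes closest to Ppif were Ampd3, an AMP deaminase, at 0.0388, Ctsk, the protease cathepsin K, at 0.0639, and Slc48a1, a haem transporter, at 0.0646, on the log2 scale; the median over all named genes was 0.712. Their own log2 fold changes were -1.33, -1.36 and -1.30. Closest to the dimmer Ppic probe were Gadd45gip1, which serves mitochondrial translation, the cation channel gene Trpc1 and the endothelial junction gene Jcad, at 0.0327 to 0.0402. Closest to the brighter Ppic probe were Wdr33, a subunit of the polyadenylation machinery, the ATP receptor gene P2rx5 and the small heat shock gene Hspb6, at 0.0186 to 0.0284. Fkbp14 was closest to Lrp11, a receptor-like membrane protein, Ttc7b, a subunit of a phosphatidylinositol kinase complex, and Sav1, a scaffold of the Hippo pathway, at 0.0304 to 0.0397. The medians for the dimmer and the brighter Ppic probe and for Fkbp14 were 0.431, 0.372 and 0.369. The Ppic probes differed from each other by 0.0766, and from Ppif by 0.302 and 0.372. Both Ppic probes thus lay farther from each other than from the genes closest to each. Genes with a like fold change come out as close by this measure, so closeness is no sign of a shared role.

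Summed marker levels of the fibroblast, neural and glial, endothelial and epithelial lists did not overlap between the genotypes, whereas those of the leukocyte and skeletal muscle lists did. Tested were 9 of 13 fibroblast, 4 of 9 neural and glial, and 3 of 9 endothelial markers. For epithelium, leukocytes and skeletal muscle, 3 of 9, 2 of 10 and 2 of 8 were tested. The rest had no named probe, so the sums are no survey of these cell types. In each sum the brightest probes weigh most. The counts of called markers that follow stand beside 21.8% of all named genes that rose and 21.8% that fell. Among 9 tested fibroblast markers 3 rose, 4 fell and 2 missed the threshold, and their summed normalized intensity ran from 36463 to 37570 in wild type and from 27798 to 32296 in knockout. Among the markers of nerve and glia, 3 of 4 tested fell and 0 rose, with sums of 5762 to 6440 in wild type and 1949 to 2045 in knockout. Of 3 endothelial markers 2 rose and 0 fell (sums of 1731 to 1899 and 2278 to 2408), and of 3 epithelial markers 1 rose and 1 fell (1372 to 1425 and 1822 to 1935). The brightest endothelial marker rose by 0.44 and another by 0.52, while the one that missed the threshold gave -0.38. The epithelial marker that rose, by 0.78, was the brightest, while another fell by 0.35 and the remaining one gave -0.09. Of 2 leukocyte markers 0 passed (864 to 1066 and 879 to 902), and of 2 skeletal muscle markers 0 rose and 1 fell (577 to 705 and 584 to 635). Intensities on these arrays have no true zero, the lowest being 118 to 139, so absence of a marker could not be read. Their part in the changes of Ppif, Ppic and Fkbp14 was not tested.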

How the data were processed

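Total RNA of wild-type and CypD knockout fibroblasts was measured on 6 Illumina bead arrays, 3 a genotype, with 45281 probes each. The authors deposited linear probe intensities per array and a processed intensity table of 12534 probes, made with BeadStudio 3.0 per the submitters' processing notes; the sources used here give no other steps. Detection p-values, slide and scan date are not used here. Array medians were 223 to 251. Precision is limited by the number of arrays.

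Intensities were background-corrected (normexp, offset 50), quantile-normalized on the log2 scale and tested in limma 3.58.1 (R 4.3.3; lmFit, eBayes with intensity trend) over the 27168 probes above the 40th percentile of mean intensity. Adjusted p-values are Benjamini-Hochberg over all of these. The offset compresses fold changes of dim probes.

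Names came from the platform annotation of the processed table, updated through Entrez identifiers to GRCm38.p6 RefSeq symbols (10643 of 10653 probes). A gene on a list is represented by its brightest tested probe. Members and lists were chosen with earlier results of these data known. Named genes were the members, their families, up to 4 called and 2 uncalled genes from each of the procollagen, ER chaperone, permeability transition and matrix chaperone lists (lowest p and highest intensity, respectively), and the 3 genes most like each member probe; the collagens of the marker list were added after their values were seen. Alternatives covered background, scaling, filter, trend, weights, the processed table, replicate block, probe choice and leaving out each array.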

Additional observations from a re-analysis of the deposited data

How the results depend on the processing

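Ppif, both Ppic probes and Fkbp14 kept their direction and passed under all 15 alternatives fitted to probes, with log2 fold changes of -1.44 to -1.33 for Ppif, -0.85 to -0.76 and -0.72 to -0.62 for Ppic and 0.59 to 0.67 for Fkbp14, and highest adjusted p of 2.35e-06, 5.74e-05, 0.000276 and 0.000733. Median scaling called 2283 probes higher and 3119 lower, against 2656 and 2767 after quantile normalization. Between 8 and 10 of the 15 isomerase genes passed under the 16 settings tried for them. With the replicate letter as a replicate block, 5273 probes passed instead of 5423 and the same number of isomerase genes, 9. The labels do not say that arrays of the same letter belong together, so the letters were not treated as pairs. Deviations of same-letter arrays had correlations of 0.101, -0.09 and 0.075, and those of different letters ran from -0.209 to 0.15. Deviations were centred within each genotype, which ties these correlations to each other, so they cannot settle whether arrays were paired.

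Every probe named in the report was refitted. Of 53 that passed, 45 did so in the same direction under every alternative fitted to them; the others were 1 probe each of Ppil1, Pdia4, Grpel1, Spg7, Col1a2 and Bcl2 and both of Creld2, whose second probe was lost without knockout B (-0.26, adjusted p = 0.0541). Of 22 that missed the threshold, 12 missed it in the same direction throughout. Passing under at least 1 alternative were Pdia3, Calr, Hspd1, the first Nktr probe, a Bcl2 probe and the second probes of Loxl1, Grpel1 and Spg7. Among the 22, directions turned for Hspd1, Fkbp1a and Fkbp1b. Hspd1 gave -0.02 with median scaling and -0.138 with array weights, and -0.46 to 0.38 when an array was left out. Fkbp1a gave -0.12 to 0.0297 and Fkbp1b -0.0006 to 0.21 when an array was left out. The causes were not tested. Background cannot be separated from expression for dim probes, which limits Fkbp1b, Nktr and the second Ppil3 probe.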
